A study of Mus musculus with 2 samples.

Results

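Kinesins and dyneins are the motor proteins that walk along microtubules, and 59 of 21887 mouse protein-coding genes were taken as their genes. The members were every RefSeq protein-coding gene whose symbol begins with Kif or Kifc and a number (kinesin heavy chains), Klc (kinesin light chains), Dync (cytoplasmic dynein subunits) or Dctn (subunits of dynactin, the activator of dynein). The choice used symbols and no measured value. The members, and the classes and lists below, were however chosen with earlier results of these data known. The data were 1 chromatin immunoprecipitation library against trimethylated lysine 4 of histone H3 (H3K4me3), the mark of active or poised promoters, in NOS1+ enteric neurons sorted from mouse small intestine (NOS1 is the neuronal nitric oxide synthase). An input chromatin library from the same kind of cells made up the second of 2 libraries, and no file of it was used here. The sources used here give no strain, age, sex or way of marking the cells for the sort. With 1 library of each kind nothing could be tested between conditions, and each statement below compares genes within 1 peak list of 29924 peaks. Genes are not replicates, so no p-value is given, and the depth of the library is unknown.

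Most kinesins carry cargo towards the growing plus end of a microtubule, which in an axon points to the terminal, while cytoplasmic dynein with dynactin carries cargo back to the cell body. The neurons of the gut wall depend on this traffic to move vesicles, mitochondria and receptors between the cell body and the varicosities of their long axons. Another set of kinesins builds the mitotic spindle, moves chromosomes and completes cytokinesis, and is known from dividing cells, whereas mature neurons do not divide. The 59 genes were therefore placed in 5 classes from general knowledge of their proteins: 23 axonal (cargo kinesins, light chains, dynein-1 and dynactin), 14 mitotic, 8 ciliary, 9 other transport motors and 5 other motors. Dynein and dynactin also serve dividing cells, so the class names give the best known role and no exclusive one.

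Almost every motor gene carried H3K4me3. A peak touched the model or the 1 kb beyond either end at 56 of the 59 genes (94.9%), where 67.0% of all protein-coding genes had one. All 23 axonal genes (exact 95% interval over genes 85.2 to 100%), all 8 ciliary genes and all 9 other transport genes had a peak. So did 13 of the 14 mitotic genes (92.9%, interval 66.1 to 99.8%), and the axonal share exceeded the mitotic one by 7.14 percentage points (interval -8.33 to 31.5). The 67.0% of all genes lay inside the mitotic, ciliary (63.1 to 100%) and other transport (66.4 to 100%) intervals and below the axonal one. The 3 genes without a peak were Kif2b, a mitotic depolymerase of the kinetochore known from testis, Kif12 and Kif28. Longer models have more room for a peak. The median model was 40654 bp long in the axonal class, 26263 bp in the mitotic class and 17169 bp over all protein-coding genes.

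The classes differed in the size and score of their peaks. In the axonal class the widest peak per gene had a median of 1726 bp and the highest score per gene a median of 214.2, against 976 bp and 133.8 for mitotic genes with a peak. All protein-coding genes with a peak had medians of 1515 bp and 152.6. The score is the authors' own value for each peak, on an unstated scale, and ranks peaks within this list only. Of the 23 axonal genes 13 were wider and 19 scored higher than the median of all genes with a peak, while of the 13 mitotic genes 3 were wider and 5 scored higher. The ranges overlapped, with widths from 781 to 2418 bp for axonal and from 565 to 2744 bp for mitotic genes. The widest mitotic peaks, at Kif22 and Kifc5b, lay at the far ends of these genes. Within 1 kb of a listed start or 5′ end (either end where no start is listed), mitotic widths ran from 565 to 1631 bp. The axonal range there was again 781 to 2418 bp. With peaks closer than 1 kb merged, the mitotic median width rose to 1514 bp and the axonal one to 1792 bp, against 1816 bp over all genes, so the axonal median then lay below that of all genes. The gap between the class medians was thus smaller when neighbouring peaks were joined.

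**Figure D1:**
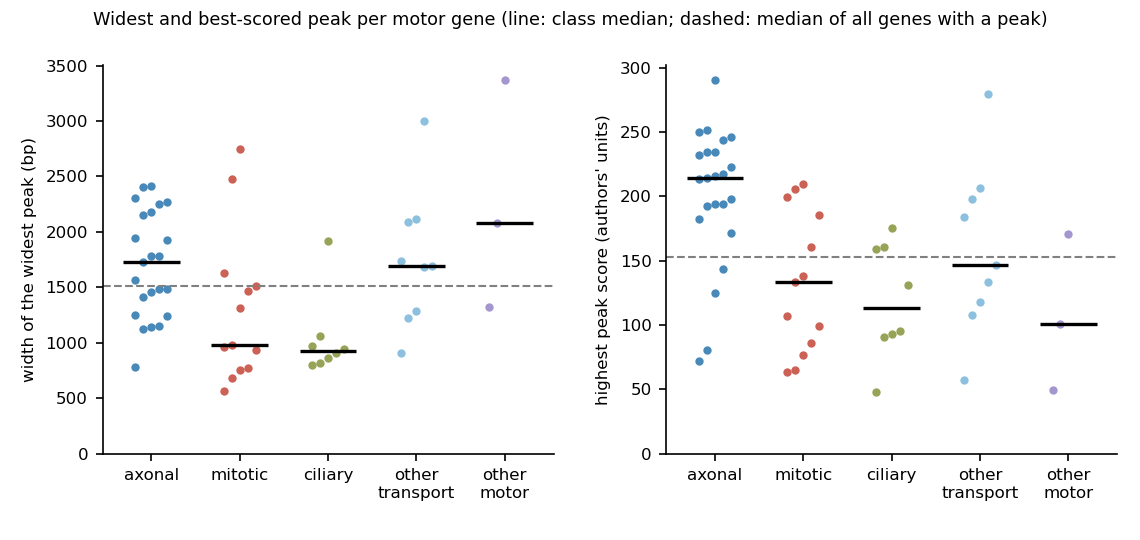
Each point is 1 motor gene with a peak, with the width of its widest peak in bp (left) and its highest score in the authors' units (right), by class, with the class median as a line and the median of all protein-coding genes with a peak dashed. Axonal genes have a median score of 214.2 and mitotic genes one of 133.8, around the dashed 152.6, and both panels show overlapping ranges.

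The shares of axonal and mitotic genes with a peak differed most among the best-scored peaks. When the better-scored 50% of all peaks were kept, the 23 axonal and 13 mitotic genes still had one, against 57.8% of all genes. In the best-scored 25%, with scores from 140.8 upwards, 20 of 23 axonal genes (87.0%) and 5 of 14 mitotic genes (35.7%) had a peak, where 37.3% of all protein-coding genes did. The difference there was 51.2 percentage points (interval 19.4 to 72.4), and the mitotic share lay near that of all genes. Among the genes that still had such a peak the class medians were closer, at 1755.5 and 1514 bp and scores of 216.4 and 199.7. The 5 mitotic genes were Kif11, Kif15, Kif20a, Kif20b and Kifc5b. The 3 axonal genes without such a peak were Kif1a, Kif5c and Dync1i1. Kif5a and Dctn2 were both counted through the same peak, and the best-scored peak within Kif5a alone scored 56.5. Ciliary motors were at 37.5% and other transport motors at 55.6%.

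**Figure D2:**
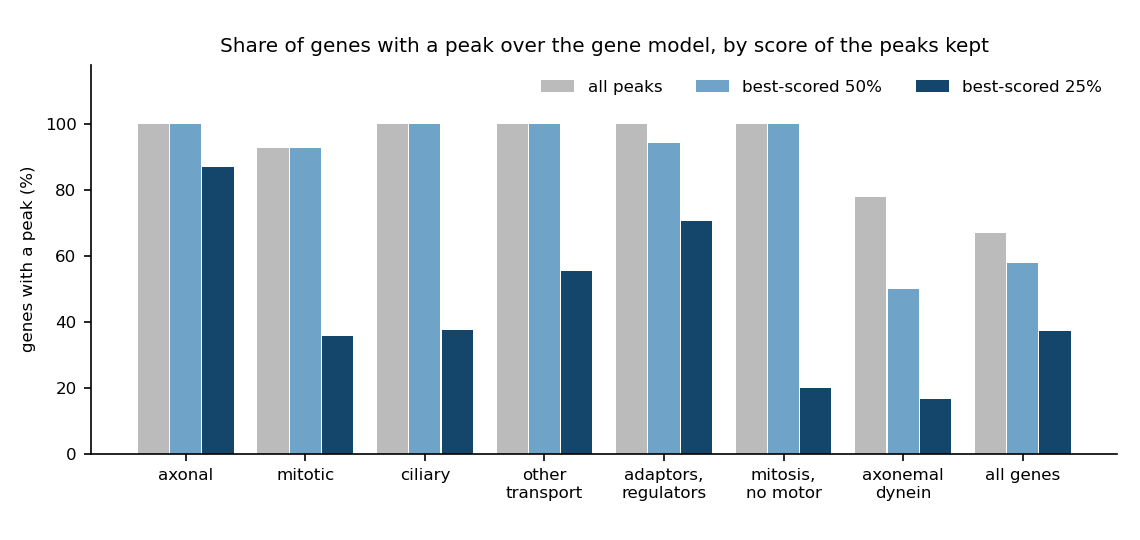
Bars give the percentage of genes with a peak on the extended model, for all peaks, the better-scored 50% and the best-scored 25%, in motor classes, related gene lists and all protein-coding genes. In the best-scored 25% the axonal bar stands at 87.0%, the mitotic bar at 35.7% and that of all genes at 37.3%.

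Kinesin-1, the main motor of fast anterograde transport, was marked at each of its genes. Kif5b, its broadly expressed heavy chain, had a peak of 2418 bp scoring 193.9, the widest of the axonal class. Kif5c, a heavy chain enriched in neurons, had one of 1238 bp scoring 124.5, with weaker peaks of 485 and 474 bp further inside the gene. At Kif5a, the heavy chain most restricted to neurons, the widest peak (1484 bp, score 234.5) lay at the upper end of the model and was the same peak as that of Dctn2, whose model overlaps that end of Kif5a. A second peak inside Kif5a, of 1131 bp scoring 56.5 (chr10:127262300-127263430, mm10), lay within Kif5a alone. The leading value of Kif5a and Dctn2 is therefore 1 value. The light chains, which bind cargo, had peaks of 2409 bp scoring 171.9 at Klc1, the form known best from neurons, and 1785 bp scoring 199.8 at Klc2. The highest score over Klc2, 250.3, belonged to a peak beyond the other end, where Rab1b ends or begins.

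The kinesin-3 and kinesin-2 cargo motors were marked too. Kif1a, the fast carrier of synaptic and dense core vesicle precursors, had an unbroken 2302-bp peak (chr1:93100149-93102450), and its score of 80.5 was among the 3 lowest of the axonal class. Its relative Kif1b, which moves mitochondria and vesicles, had one of 1927 bp scoring 213.3 and a second of 711 bp scoring 156.4 just upstream. Kif13b, a carrier of phospholipid and membrane cargo, had one of 1154 bp scoring 251.6. The heterotrimeric kinesin-2 genes Kif3a (1142 bp, score 198.0) and Kif3b (1454 bp, 215.7), which serve axons and cilia, and Kif3c (1945 bp, 182.2), enriched in neurons, were all marked. Kif21a, a kinesin that acts on microtubule growth in axons, had one of 2176 bp scoring 194.5 and 4 weaker peaks inside the gene with scores from 3.99 to 31.3.

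Dynein-1 and dynactin, the retrograde motor and its activator, were marked at every subunit gene in the class. Dync1h1, the heavy chain with the motor domain, had a peak of 2271 bp scoring 232.2. Its light intermediate chains, which bind cargo adaptors, had peaks of 2151 bp scoring 143.5 at Dync1li1 and 1417 bp scoring 244.2 at Dync1li2. Of the dynactin genes, Dctn1, which encodes the large subunit that binds dynein and microtubules, had a peak of 1726 bp scoring 246.3, Dctn5 one of 1569 bp with 223.3, at an end of Palb2 as well, and Dctn4 one of 1123 bp with 192.7. The Dctn1 peak lies at the 5′ end of the model. Both of its listed starts lie inside the model, and no peak within 1 kb of them scored above 27.9. Dctn6 had the highest score of all 59 motor genes, 290.3 (1785 bp), at a place where an end of Mboat4 also lies. The widest peak over Dctn3 (2248 bp, score 217.1) lay beyond the far end of its model, at an end of Rpp25l, while its start had a peak of 1330 bp scoring 208.4.

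Among the intermediate chains of dynein the neuronal form was the weakest axonal gene. Dync1i2, the broadly expressed form, had a peak of 1251 bp scoring 214.2. Dync1i1, the form enriched in neurons, had at its start only a peak of 781 bp scoring 25.9 (chr6:5725615-5726395). Its best-scored peak, of 576 bp scoring 72.2, lay 280224 bp into the gene (chr6:6005824-6006399), next to 3 narrow ones.

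Neuron-enriched axonal motors had lower scores than their broadly expressed paralogs in 5 of 6 pairs. Kif1a scored 80.5 and Kif1b 213.3, Dync1i1 72.2 and Dync1i2 214.2, and Kif5c 124.5 and Kif5b 193.9. The values were closer for Kif3c and Kif3b, at 182.2 and 215.7. The exception was Kif5a, 40.6 above Kif5b through the peak it shares with Dctn2. Klc1 scored 171.9 and Klc2 250.3 through the peak at Rab1b, or 199.8 through its widest peak. Kif5b stands in 2 of the pairs, so these are not 6 separate comparisons. Widths showed no such order: the neuron-enriched gene had the wider peak in 3 of the 6 pairs (Kif1a, Kif3c and Klc1). With peaks closer than 1 kb merged, a comparison added after seeing the data, it was again 3 of 6, but Kif1a (2302 bp, Kif1b 2725 bp) left them and Dync1i1 (1677 bp, Dync1i2 1251 bp) joined. The pairs were formed from general knowledge of expression, with no RNA from these cells.

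**Figure D3:**
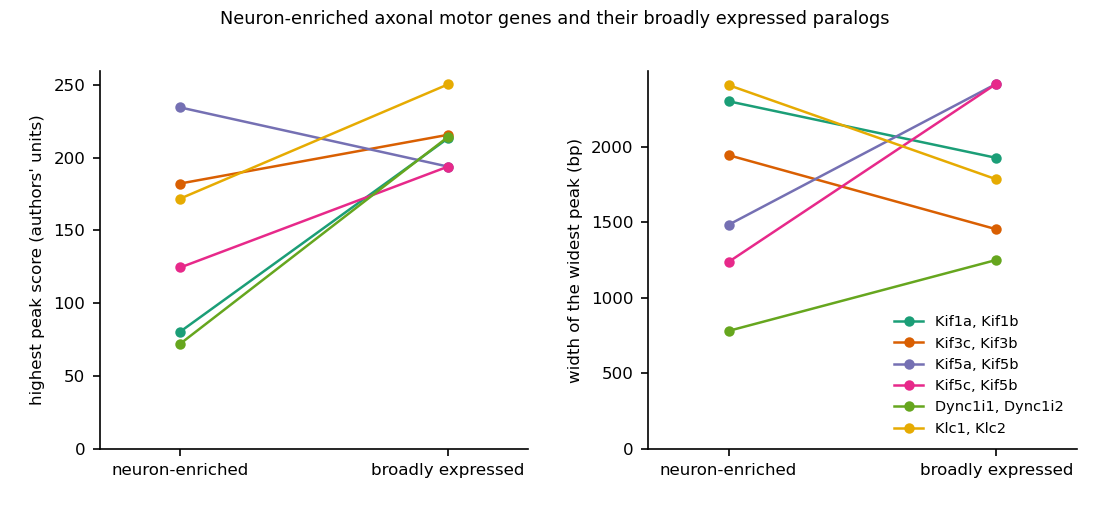
Lines join each neuron-enriched motor gene to its broadly expressed paralog, with the highest peak score in the authors' units on the left and the width of the widest peak in bp on the right. Scores rise towards the broad paralog in 5 of 6 pairs, the exception being Kif5a and Kif5b, while widths rise in 3 and fall in 3.

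Of the 14 mitotic kinesin genes 13 had a peak, in a library from neurons. The interval of that share, 66.1 to 99.8%, includes the 67.0% of all protein-coding genes. Kif11, which pushes the spindle poles apart, had 2 neighbouring peaks, of 934 bp scoring 199.7 and 904 bp scoring 110.3. Kif15, which can stand in for Kif11, had one of 1514 bp scoring 205.6 that also lies at an end of 1110059G10Rik. Kif18a (1317 bp, score 137.9), which aligns chromosomes, shared its peak with Mettl15, and Kif18b (565 bp, 106.7) had the narrowest one of all marked motor genes. The chromokinesin gene Kif4, on chromosome X, had peaks of 680 and 423 bp with scores of 64.8 and 38.7.

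Genes for the central spindle and cytokinesis varied among themselves. Kif20b had a peak of 1631 bp scoring 160.8 and Kif20a one of 1463 bp scoring 209.5, which also lies at an end of Brd8. Kif23 (752 bp, score 76.5) and Kif14 (976 bp, score 63.5) were weaker, and so was the depolymerase gene Kif2c (964 bp, 86.3). The widest peaks of the class, 2744 bp over Kif22 and 2474 bp over Kifc5b, lay at the far ends of these genes and also at ends of Maz and Phf1. At their own starts Kif22 had a peak of 601 bp scoring 106.0 and Kifc5b one of 730 bp scoring 141.9. The widest peak lay within 1 kb of a listed start or 5′ end of another protein-coding gene at 6 of the 13 mitotic and 5 of the 23 axonal genes. For other genes without a listed start, either end of the model was taken. The same count was not made over all protein-coding genes, so whether these counts are unusual was not tested.

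Kifc1, a minus-end directed spindle motor, and Kifc5b are near copies. Of the 300 bases of the Kifc1 promoter window, 183 lay in runs of at least 20 bases that were identical in the Kifc5b window. The longest such run was 68 bases. How reads that fit both places were treated is not given in the sources used here, so the value of Kifc1 (776 bp, score 99.6) and the start peak of Kifc5b are uncertain.

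Peaks of axonal motor genes reached further into the gene than those of mitotic ones. A strand and a start site were listed for 45 of the 59 genes, and of these 16 of 16 axonal and 12 of 13 mitotic genes had a peak within 1 kb of a listed start or of the 5′ end of the model, against 64.0% of all genes with a listed strand. From the start with the widest peak, axonal peaks reached a median of 1207.5 bp into the gene (range 795 to 2109 bp) and mitotic ones 591.5 bp (range 417 to 918 bp), against 1131 bp over all such genes. The exact 95% intervals of these medians over genes were 927 to 1890 bp and 460 to 749 bp. The axonal genes Dync1i1, Dctn3 and Dctn5 lay inside the mitotic range, and Kif11 was the mitotic gene inside the axonal range. Kif21a (2109 bp), Klc1 (2081 bp), Kif1b (1916 bp) and Kif1a (1890 bp) reached furthest, and Kif2c (417 bp), Kif4 (448 bp) and Kif14 (460 bp) least. In the other direction the order was turned, with medians of 372.5 bp upstream for axonal, 569.5 bp for mitotic and 504 bp for all genes, and an overlap of the ranges from 34 to 948 bp. Every one of the 16 axonal starts had its longer side downstream, as did 6 of 12 mitotic starts and 85.1% of all.

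Among genes with a listed strand, mitotic starts were also more often divided. More than 1 peak lay within 1 kb of the start at 6 of 12 mitotic genes (50%), at 3 of 16 axonal genes (18.8%) and at 29.2% of all genes with a start peak. Some of these peaks were narrow, as at Kifc1 (153 bp, score 5.50) and Dctn2 (153 bp, score 4.85). A wider count took in any listed start and the 5′ end, or either end of the model where no start is listed. It found more than 1 peak at 7 of 13 mitotic, 9 of 23 axonal and 4839 of 13925 of all genes with a peak there. The listed start itself lay between 2 peaks at Kif4 among the mitotic genes and at Dctn2 among the axonal ones. At Kif18b, Kif22 and Kif23 the gap lay by the 5′ end of the model, while the listed start, further into the model, was inside a peak. At Kif4, where an end of Pdzd11 also lies, the downstream peak began 26 bp after the start. With the listed start sites alone, 11 of 14 mitotic genes and 23 of 23 axonal genes had a peak within 1 kb (either end of the model where no start is listed), against 62.9% of all genes. The mitotic genes lost in this way were Kif14 and Kif2c, whose listed starts lie 1547 and 3852 bp inside the model.

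**Figure D4:**
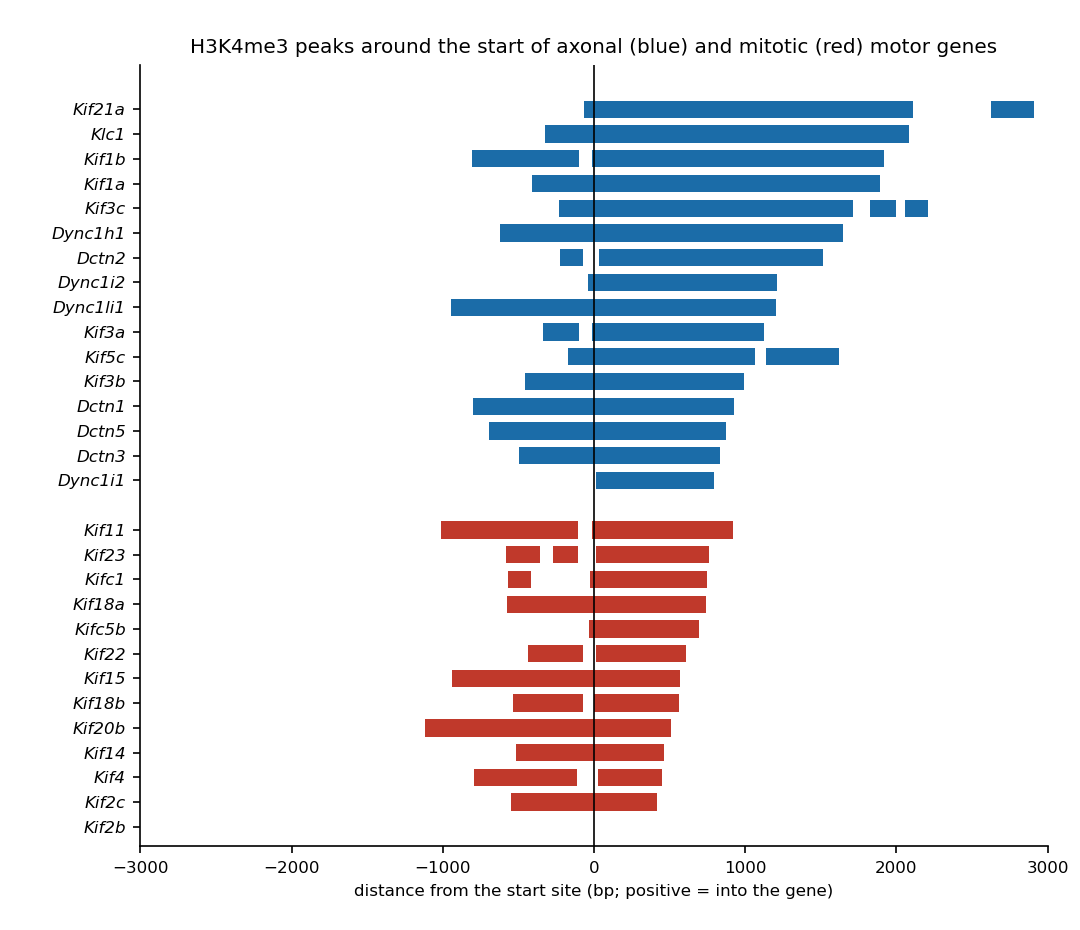
Bars are the H3K4me3 peaks within 3 kb of the start of the 16 axonal (blue) and 13 mitotic (red) motor genes with a listed strand, in bp from the start and drawn in the direction of transcription. Peaks that touch the 1 kb around the start reach 795 to 2109 bp into axonal genes and 417 to 918 bp into mitotic ones. Bars that begin further in, as at Kif21a and Kif3c, are drawn but not counted in these ranges. Among the genes drawn, mitotic peaks are more often broken near the start, while Kif2b has none.

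Mitotic motors also differed from axonal ones in the letters of their promoters. Promoters of cell cycle genes are known for CCAAT boxes, bound by NF-Y, and for the cell cycle homology region TTTGAA near the start, through which the DREAM complex silences them outside division. Both were searched on both strands in the RefSeq window from 250 bases before to 50 after 1 listed start per gene (GRCm38.p6, the coordinates of mm10), as the letters CCAAT or ATTGG and TTTGAA or TTCAAA, each counted whether or not it overlapped the other. TTTGAA stood in 11 of 13 mitotic windows (84.6%), in 1 of 16 axonal windows (6.25%) and in 16.5% of all 17492 windows. CCAAT stood in 9 of 13 mitotic (69.2%), 6 of 16 axonal (37.5%) and 39.2% of all windows. Within 30 bases of the start, a limit set after the positions were seen, TTTGAA stood in 8 of 13 mitotic windows, 0 of 16 axonal windows and 2.39% of all. Kif18a and Kif2b were the mitotic genes without TTTGAA, and Dctn1, whose listed start lies inside its model, was the axonal gene with it. The mitotic count has the same limit at Kif14 and Kif2c. Their windows hold TTTGAA but lie at listed starts 1547 and 3852 bp inside the model, with no peak over them. It also counts the near copies Kifc1 and Kifc5b as separate genes. A match is a run of letters and not a shown binding site.

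The bases before the start of 3 mitotic and 4 axonal genes are shown to set these letters side by side, 5′ to 3′ on the strand of the gene and outside the gene model, with each CCAAT or TTTGAA, on either strand, in capitals. In Kif11 the reversed TTTGAA begins 19 bases before the start, and so it does in Kif15, while Kif18b has a pair of CCAAT boxes and its TTTGAA lies outside the printed bases.
Kif11 (chr19:37376232-37376381, plus strand): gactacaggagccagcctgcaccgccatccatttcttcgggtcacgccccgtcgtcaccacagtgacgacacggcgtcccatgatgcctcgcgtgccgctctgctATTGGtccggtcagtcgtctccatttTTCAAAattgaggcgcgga
Kif15 (chr9:122950931-122951080, plus strand): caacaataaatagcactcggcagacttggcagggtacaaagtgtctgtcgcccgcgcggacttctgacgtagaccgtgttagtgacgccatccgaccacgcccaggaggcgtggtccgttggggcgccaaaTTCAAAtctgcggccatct
Kif18b (chr11:102925135-102925274, minus strand): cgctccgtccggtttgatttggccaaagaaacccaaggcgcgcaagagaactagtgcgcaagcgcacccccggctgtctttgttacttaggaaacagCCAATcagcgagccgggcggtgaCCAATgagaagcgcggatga
Kif5c (chr2:49619136-49619285, plus strand): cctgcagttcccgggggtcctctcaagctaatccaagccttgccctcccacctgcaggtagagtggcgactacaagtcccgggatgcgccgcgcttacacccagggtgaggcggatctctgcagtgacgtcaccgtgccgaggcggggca
Kif3c (chr12:3364982-3365131, plus strand): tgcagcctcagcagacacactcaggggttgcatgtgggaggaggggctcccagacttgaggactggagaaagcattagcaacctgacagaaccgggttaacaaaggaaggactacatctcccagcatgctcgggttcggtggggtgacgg
Dync1h1 (chr12:110601245-110601394, plus strand): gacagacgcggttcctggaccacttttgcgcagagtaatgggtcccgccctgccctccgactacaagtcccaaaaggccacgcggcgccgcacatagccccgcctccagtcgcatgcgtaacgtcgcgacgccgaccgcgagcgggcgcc
Dync1i1 (chr6:5725489-5725599, plus strand): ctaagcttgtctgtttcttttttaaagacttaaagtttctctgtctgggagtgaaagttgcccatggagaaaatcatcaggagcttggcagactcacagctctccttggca

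The printed stretches also differ in CpG, the dinucleotide whose density goes with H3K4me3 at promoters in most cell types. Of the stretches of 150 bases, that of Dync1h1 holds 21 CpG, that of Kif11 15 and that of Kif3c 4. The stretch of Dync1i1, the axonal gene with the lowest score, has 111 bases and 0 CpG. Its full window holds 6 CpG, as does that of Dync1i2, which scored 214.2. Over the whole 300-base windows the observed over expected CpG ratio had a median of 0.92 in mitotic genes (range 0.12 to 1.01), 0.72 in axonal genes (0.13 to 1.11) and 0.58 over all windows. The median mitotic promoter had the higher CpG ratio and the narrower, lower-scored peaks. The lowest ratios, at Kif2c (0.12), Dctn1 (0.13) and Kif14 (0.23), belong to listed starts inside the model that are not where the main peak lies.

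**Figure D5:**
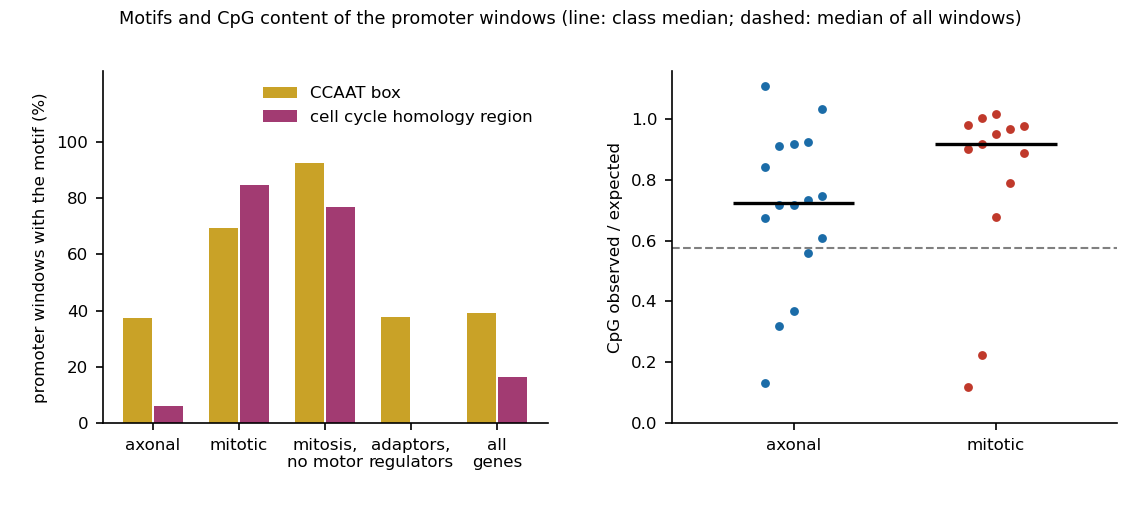
Left, the percentage of promoter windows (250 bases before to 50 after the start) with the CCAAT box and with the cell cycle homology region, in motor classes, related lists and all genes. Right, the observed over expected CpG ratio of each axonal and mitotic window, with class medians of 0.72 and 0.92 as lines and the median of all windows, 0.58, dashed.

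The ciliary motors, classed by a best known role in cilia, had narrow peaks. All 8 were marked, and their medians were 925.5 bp for width and 113.2 for score. Kif9 (1915 bp, score 159.2) was the widest, at a place where an end of Klhl18 also lies, and Kif7, a regulator of Hedgehog signalling in the cilium (1062 bp, 131.3), and Kif27 (968 bp, 95.1, not at its start) came next. The dynein-2 genes Dync2h1 (817 bp, 93.3) and Dync2li1 (796 bp, 161.0) were the narrowest. The peaks of Kif24 and Dync2h1 also lie at ends of Nudt2 and Dcun1d5. Wdr60 (1142 bp, 170.1) and Wdr34 (1229 bp, 168.1), which encode the intermediate chains of dynein-2 under older names and are no members by symbol, were marked too.

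The remaining motors were mixed. Among other transport motors Kif13a, a carrier of endosomal cargo, had the widest peak (2999 bp, score 206.7), followed by Kif1c (2113 bp, 183.6) and Kifc2 (2085 bp, 117.6), a minus-end directed kinesin of neurons. Klc4 had the second-highest score of all motor genes, 279.9, from a peak of 737 bp that also lies at an end of Mrpl2. Kif17 (1283 bp, 133.4) and Kif21b (1227 bp, 108.0), known from dendrites, and Kif16b (1687 bp, 197.8) were marked, Kifc3 had its widest peak inside the model (1740 bp, 146.3), and Klc3 was the narrowest (903 bp, 57.6). The widest peaks of Kif1c, Kifc2, Klc4 and Kif17 also lie at ends of Inca1, Cyhr1, Ptk7 and Sh2d5. Kif26b (3367 bp, score 100.6) had the widest peak of all 59 genes and its relative Kif26a one of 2083 bp scoring 49.6. Both encode kinesins without motor activity that act in signalling, and the latter is known in mouse for restraining GDNF-RET signalling in enteric neurons. Kif2a, a depolymerase that acts in neurons and at the spindle, had peaks of 1325 and 792 bp with scores of 135.2 and 170.7.

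Genes that work with the motors were examined beside them. For comparison, 67.0% of all protein-coding genes had a peak, 37.3% one in the best-scored 25%, and 16.5% of all windows held TTTGAA. Of 34 adaptor and regulator genes of kinesin and dynein all had a peak, at a median of 1595 bp and a score of 192.0, and 24 had one in the best-scored 25% (70.6%). Mapk8ip3, the JIP3 adaptor (3583 bp), Arl8a, which links lysosomes to kinesin (2754 bp), Hook3 (2617 bp) and Pafah1b1, which encodes the dynein regulator LIS1 (2504 bp), were the widest. Their peaks reached a median of 1507 bp into the gene, and 0 of 29 windows held TTTGAA. Of 15 other mitosis genes, Cenpe (a kinesin under another symbol) among them, all had a peak too, at a median of 867 bp and a score of 110.4, with 3 in the best-scored 25% (20%). Aurka (2046 bp), Plk1 (1360 bp), Mki67 (1223 bp) and Ccnb1 (1193 bp) were the widest. Their peaks reached a median of 818 bp into the gene, and 10 of 13 windows held TTTGAA. Axonemal dynein genes, which make motile cilia beat, had a peak in 14 of 18 cases, with a median of 607.5 bp and a score of 48.8. That share, 77.8% (interval 52.4 to 93.6%), has the 67.0% of all genes inside its interval. Dnah3, Dnah12, Dnah14 and Dnah17 had none.

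Markers of other cells were marked in the same library. A peak lay over all 7 neuronal markers examined, with scores up to 104.8, though Nos1 itself had only 1 of 183 bp. Peaks also lay over all 5 glial markers (scores 26.9 to 85.9) and all 5 smooth muscle markers (8.38 to 32.6). None of these neuronal, glial and muscle markers reached the best-scored 25%, where 37.3% of all protein-coding genes had a peak. The share of glia, muscle or dividing cells in the sort, and its part in the peaks of the mitotic motors, was not tested. A peak shows neither the amount of RNA nor the share of cells that carry the mark.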

How the data were processed

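The data were 1 H3K4me3 library from sorted NOS1+ enteric neurons. Per the file headers the authors' deposited peaks came from MACS2 on a paired-end library. The submitters' processing notes name BWA, Picard, MACS2 and mm10, without roles or versions. The score in the deposited list is the authors' peak value; the sources used here give neither its scale nor the threshold, the handling of duplicates or the depth. Whether a weak peak is called or divided can depend on that unknown depth.

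Gene models, start sites and promoter windows came from RefSeq tables of GRCm38.p6. A gene had a peak when at least 1 bp lay within its model extended by 1 kb. Start sites were listed for 45 of 59 members, not for Kif5a, Kif5b, Kif13b, Klc2, Dync1li2, Dctn4, Dctn6, Kif20a, Kif19a, Dync2li1, Kif21b, Kifc2, Kifc3 and Kif28. Promoter orientation was checked on 586 overlapping windows of opposite strands, all reverse complements. Shares have Clopper-Pearson intervals, medians order-statistic ones and the difference of shares a Newcombe one, over genes, not over animals or libraries. Members, classes and lists were chosen with earlier results of these data known. All axonal and mitotic members are named; of the ciliary, other transport and other motor members at least the 3 widest and those without a peak; of other lists up to 4 examples and the exceptions. Python 3.11.15, pandas 2.3.3 and scipy 1.17.1 were used, and the code was tested on simulated peaks.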

Additional observations from a re-analysis of the deposited data

How the results depend on the processing

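The share of axonal genes with a peak was 100% under each of the other settings except the best-scored 25% of peaks, where it was 87.0%. The mitotic share (92.9%) lay outside its interval only in that 25%, at 35.7%, where the difference of the shares grew to 51.2 percentage points. It was 21.4 points with listed starts alone and 12.5 points among genes whose window overlaps no other protein-coding model. The axonal median width stayed between 1435.5 and 1792 bp and the mitotic one between 776 and 1514 bp, the upper value with peaks merged or in the best-scored 25%, and the axonal median was the larger in each setting. The reach into the gene, computed under 7 settings chosen after seeing the data, had medians of 1163.5 to 1365 bp for axonal and 565 to 633.5 bp for mitotic genes. The mitotic reach upstream fell to 487.5 bp in the best-scored 25%, where 4 genes were left. The axonal median width was above that of all genes with a peak in the main setting (1726 and 1515 bp) but below it with peaks merged (1792 and 1816 bp), within 1 kb of a listed start (1484 and 1501 bp) and among genes with no overlapping neighbour (1435.5 and 1460 bp). Merging moved 29 single-gene values and turned the width order of Kif1a and Kif1b and of Dync1i1 and Dync1i2. No paired analysis was possible because there is 1 library of each kind and no replicate.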
